A study of Homo sapiens with 12 samples.

Results

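The YAP5SA line and the GFP line, both derived from human podocytes, were compared without doxycycline, the drug that induces both constructs. The comparison rests on 6 of the 12 libraries of the series, 3 from each line, taken by their column names, and covers the 17470 genes that passed a filter on low counts. Both lines descend from a human podocyte line transformed by a temperature-sensitive SV40 large-T antigen, which grows at 33 °C and differentiates at 37 °C. The YAP5SA line carries pCW-(FLAG-NLS-)YAP5SA and the GFP line pCW-eGFP, each a stable Tet-On construct that is transcribed when a tetracycline is present. All cells spent 12 days at 37 °C, and the untreated libraries were then kept without doxycycline over the 24 hours in which the treated ones received 0.1 µg/ml. The labels do not say whether a line is 1 clone or a pool, so what the construct does and how the 2 lines otherwise differ cannot be told apart. They number the replicates 1 to 3 without saying whether these were separate cultures, and p-values then measure only the spread between these libraries, which may be technical.

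YAP is a transcriptional co-activator that binds TEAD factors at promoters and enhancers. The Hippo kinases MST1/2 activate the kinases LATS1/2, which phosphorylate YAP. This keeps YAP in the cytoplasm and marks it for degradation, and YAP5SA lacks serines that LATS1/2 use. The targets of YAP include matricellular proteins, cytoskeletal genes and several inhibitors of YAP itself, such as LATS2 and AMOTL2, and in podocytes YAP activity is tied to adhesion, mechanical load and survival.

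TEAD factors recognise the element GGAATG, which reads as CATTCC on the other strand, and the bases upstream of CCN2 and ANKRD1 are shown because both genes are standard readouts of YAP and differed between the untreated lines. The sequences are RefSeq's on GRCh38.p14, minus strand, written from 5′ to 3′ and ending at the GENCODE 29 start of transcription. Capitals mark the element.
CCN2, chr6:131951374-131951622: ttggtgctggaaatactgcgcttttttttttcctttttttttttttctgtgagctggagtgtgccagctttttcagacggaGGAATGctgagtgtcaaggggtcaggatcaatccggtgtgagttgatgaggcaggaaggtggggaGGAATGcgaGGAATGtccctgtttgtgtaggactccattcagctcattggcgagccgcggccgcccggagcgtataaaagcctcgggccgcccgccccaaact
ANKRD1, chr10:90921277-90921337: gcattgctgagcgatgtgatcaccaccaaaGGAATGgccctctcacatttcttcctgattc
The CCN2 stretch of 249 bases holds 3 matches and the ANKRD1 stretch of 61 bases holds 1. Within 250 bases before a RefSeq start, on either strand, 13.2% of the 12082 tested genes matched to the promoter table held the element, against 16.8% of the 833 matched genes called higher and 13.8% of the 347 called lower. Among the YAP/TAZ targets 16 matched the table and 7 held it, CCN2, ANKRD1, AMOTL2, AXL and PTPN14 among those called higher and NUAK2 and TGFB2 among those not called. A match describes the letters of this window and no more.

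Of the 17470 genes, 1512 were called, that is, had a Benjamini-Hochberg adjusted p below 0.05 in edgeR's quasi-likelihood test. This is 8.65% of the genes tested, and 4113 had an unadjusted p below 0.05. The calls leaned upward: 1056 genes were higher in the YAP5SA line (6.04%) and 456 were lower (2.61%). Most differences were small, with a median log2 difference of 0.34 among the higher genes and -0.36 among the lower ones, while the median over all genes was -0.002. A log2 difference of at least 1 was reached by 130 higher and 30 lower genes, and one of at least 2 by 34 higher genes and 0 lower genes. The libraries of the lines did not overlap for 1055 of the higher and 455 of the lower genes, against 29.5% of all genes tested (2872 above and 2280 below). Leaving out 1 library gave between 607 and 1451 calls. The count fell to 718 without replicate 1 of the GFP line, to 678 without its replicate 2 and to 607 without replicate 1 of the YAP5SA line.

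**Figure D1:**
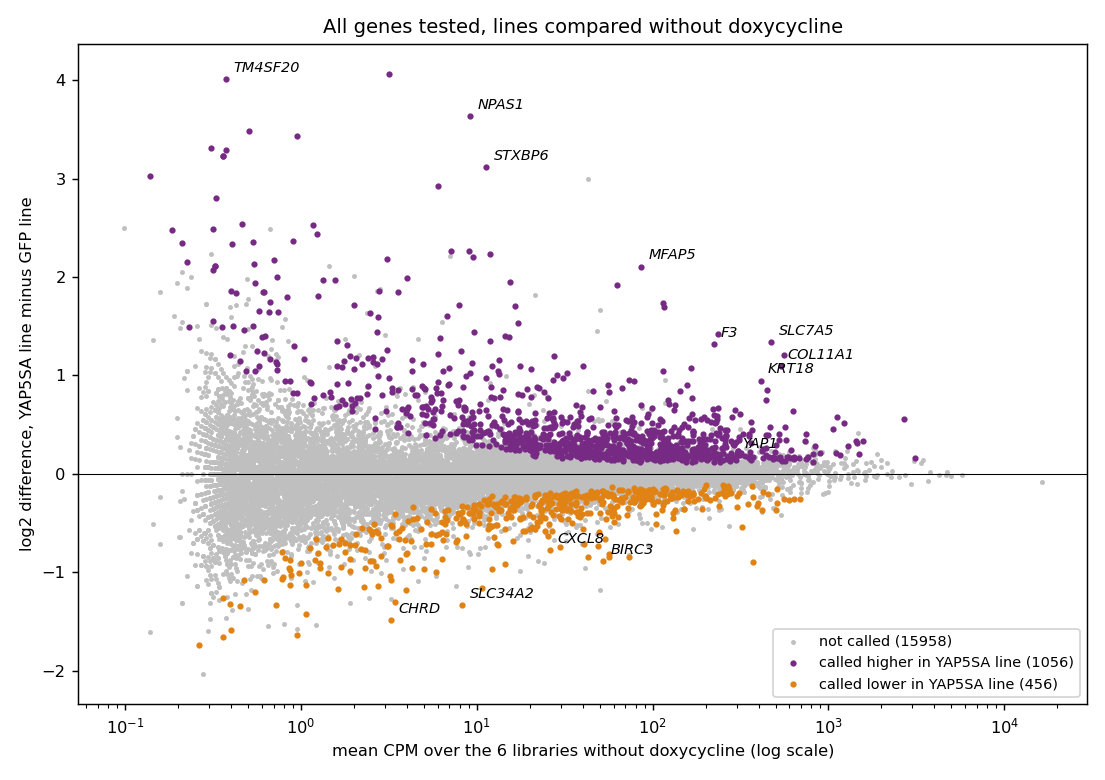
Each point is 1 gene tested, with its mean over the 6 untreated libraries (CPM, counts divided by adjusted library size, log axis) against its log2 difference between the lines (YAP5SA minus GFP). Called genes are coloured, 1056 higher and 456 lower; most lie close to 0, and all called differences beyond 2 are on the higher side.

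Depth was even, 24477592 to 25177086 counts per untreated GFP library and 25493014 to 25697026 per untreated YAP5SA library. CPM below denotes counts divided by TMM-adjusted library size. Library values stand in the order of replicates 1, 2 and 3, the GFP line first, and a log2 difference is YAP5SA minus GFP with its SE. For every called gene named the libraries of the lines did not overlap. The first principal component of the 6 libraries held 43.3% of the variance and separated the lines, from -27.6 to -9.58 in the GFP line and from 18.6 to 24.7 in the YAP5SA line. The second held 24.2% and followed the replicate number in both lines. Its values were 0.635, 12.3 and -19.9 in the GFP line and -0.79, 26.1 and -18.3 in the YAP5SA line. Defining podocyte markers were at or near 0, with 18 counts of NPHS1 and 71 of WT1 over 12 libraries, while TCF21 and SYNPO were read in every library. The parietal epithelial genes PAX8, CD44 and KRT7 were abundant, as were the contractile genes TAGLN and CNN1. The endothelial PECAM1 and the tubular UMOD and AQP2 had between 0 and 2 counts in all, while VWF had 290, TEK 126, CUBN 421 and AQP1 277.

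The YAP1 row can hold transcripts of the endogenous gene and of the construct alike. It did not differ detectably between the untreated lines when libraries were not matched by replicate number. YAP1 (ENSG00000137693, chromosome 11, 102110461 to 102233423 on GRCh38) held 173, 332 and 321 CPM in the GFP line and 221, 375 and 345 CPM in the YAP5SA line. The ranges overlapped, and replicate 1 was the lowest library of each line. Taken by number, each YAP5SA library lay above the GFP library of the same number. The SE, interval and p-values that follow do not match libraries by number, so their spread includes this replicate pattern. The log2 difference was 0.19 ± 0.36 (SE), with a 95% interval of -0.64 to 1.01 and an adjusted p of 0.812. In CPM the lines differed by 38.3 (means 275 and 314, n = 3 each), with an exact permutation p of 0.5, two-sided, where 3 libraries against 3 cannot go below 0.1. Without replicate 1 of the GFP line the log2 difference was -0.059 (adjusted p = 0.958). In the other fits without 1 library it was up to 0.39 and not called. The interval spans a doubling as well as a fall, so a small amount of construct transcript was not detectable at this spread. With doxycycline the same row held 1757, 1672 and 969.8 CPM in the YAP5SA line and 177, 326 and 312 CPM in the GFP line.

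Most of the listed YAP/TAZ targets were called higher in the untreated YAP5SA line. The list was chosen with earlier results of these data known, so its share describes these genes only. Of 21 measured, 13 were called higher (61.9%, against 6.04% of all genes) and 0 lower, with 14 and 1 at an unadjusted p below 0.05, and DESeq2 and limma-voom called 14 and 13 higher and 0 lower. Their median log2 difference was 0.22, and their CPM summed to 6666 to 7291 per GFP library and 8323 to 8487 per YAP5SA library. F3 (ENSG00000117525), the tissue factor that starts coagulation, led the list, with 133, 134 and 115 CPM in the GFP line and 349, 369.9 and 233 CPM in the YAP5SA line (log2 difference 1.32 ± 0.19, adjusted p = 0.00323). ANKRD1, a muscle and stress-response ankyrin protein, held 124, 66.1 and 128 CPM in the GFP line, with replicate 2 low, and 236, 210.4 and 224 CPM in the YAP5SA line (log2 difference 1.08 ± 0.28, adjusted p = 0.0481). The ANKRD1 call ended in each of the 6 fits without 1 library, at an adjusted p of up to 0.148.

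CCN2, a secreted matricellular protein, held 387, 355 and 431 CPM in the GFP line and 588, 524 and 517 CPM in the YAP5SA line (log2 difference 0.47 ± 0.09, adjusted p = 0.00748). LATS2, the kinase that restrains YAP, held 130.3, 123 and 143 against 209, 199 and 196 CPM (log2 difference 0.61 ± 0.07, adjusted p = 0.000228). AMOTL2, an angiomotin that tethers YAP at junctions, held 325, 296 and 317 against 431, 451 and 398 CPM (log2 difference 0.45 ± 0.08, adjusted p = 0.00352). In each of them the lowest YAP5SA library lay above the highest GFP library. NT5E, the ecto-enzyme that makes adenosine, held 179, 196 and 189.9 against 293, 274 and 265 CPM (log2 difference 0.56 ± 0.05, adjusted p = 6.3e-05). Smaller differences were called for GADD45B (log2 difference 0.54), ARHGEF17 (0.27), the receptor tyrosine kinase AXL (0.23), PTPN14 (0.22), CRIM1 (0.21), IGFBP3 (0.21) and DOCK5 (0.21). GADD45B, PTPN14, CRIM1, IGFBP3 and DOCK5 fell outside the rule for naming genes and are given, after their values were seen, to account for the list. AXL lost its call without replicate 1 of the YAP5SA line (adjusted p = 0.0535). CCN1, a close relative of CCN2 and as widely used a target, held 844, 815 and 801 CPM in the GFP line and 835, 871 and 813 CPM in the YAP5SA line, overlapping and not called (log2 difference 0.03 ± 0.06, adjusted p = 0.777). MYOF, ASAP1, FJX1, CCDC80, NUAK2, TGFB2 and RBMS3 were not called either, at log2 differences between -0.12 and 0.22. Without 1 library 8 to 10 targets were called, 8 without replicate 2 of the GFP line and 8 without replicate 1 of the YAP5SA line, and 6 were called without both replicate 1 libraries of the GFP line.

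**Figure D2:**
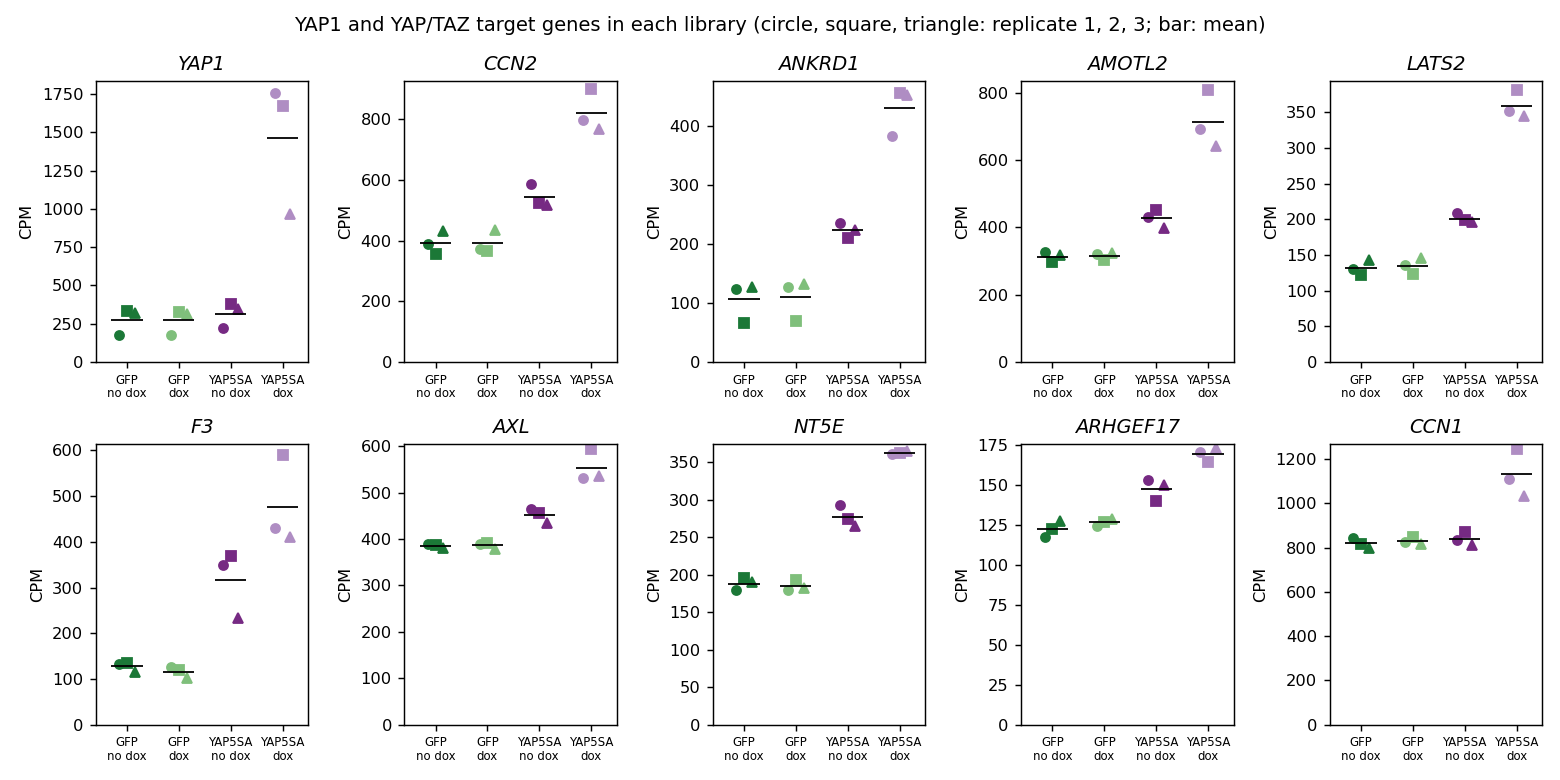
CPM of YAP1 and 9 YAP/TAZ targets (vertical axes from 0) in each library of the 4 groups, with symbols for replicates 1 to 3 and a bar at the mean of 3. Without doxycycline YAP1 and CCN1 overlap between the lines, whereas CCN2, AMOTL2, LATS2, F3, AXL, NT5E, ARHGEF17 and ANKRD1 lie higher in every YAP5SA library than in every GFP library.

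Among YAP's partners, VGLL3, a cofactor that binds TEAD factors, held 56.7, 45.9 and 59.0 CPM in the GFP line and 110.3, 103 and 98.2 CPM in the YAP5SA line (log2 difference 0.95 ± 0.11, adjusted p = 0.000516). TEAD1 held 260.0, 262 and 261 against 324, 329.8 and 311 CPM (log2 difference 0.30 ± 0.04, adjusted p = 0.00157), a difference of small size and very small spread. TEAD4 was also higher (log2 difference 0.35 ± 0.08, adjusted p = 0.0134), although its call ended without replicate 1 or replicate 2 of the YAP5SA line, at an adjusted p of up to 0.0656. TEAD2 (log2 difference -0.30 ± 0.10, adjusted p = 0.0983), TEAD3 (0.05) and WWTR1, which encodes TAZ (-0.02), were not called. Of 8 measured factors and cofactors 3 were thus higher and 0 lower (37.5% called, against 8.65% of all genes), with 1 lower at an unadjusted p below 0.05. Of 27 Hippo kinases, adaptors and upstream regulators 5 were called higher (18.5%, against 6.04% of all genes) and 0 lower, with 12 and 1 at an unadjusted p below 0.05, and DESeq2 called 7 higher. Besides LATS2, AMOTL2 and PTPN14 these were WWC2, a scaffold that activates LATS kinases, with 180.4, 164 and 190.1 against 274, 272 and 261 CPM (log2 difference 0.59 ± 0.07, adjusted p = 0.00048), and STK3, which encodes MST2 (log2 difference 0.22 ± 0.05, adjusted p = 0.0227). The STK3 call ended without replicates 1 or 2 of either line, at an adjusted p of up to 0.0905. LATS2, AMOTL2 and PTPN14 are counted among the YAP/TAZ targets above as well, so the lists overlap. Between 3 and 7 Hippo genes were called without 1 library, with 3 in the fits lacking replicate 1 or 2 of the GFP line or replicate 1 of the YAP5SA line. TEAD2 was called lower without replicate 2 of the YAP5SA line.

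The largest differences described here are those of called genes that have a symbol and reach a mean of 2 CPM in the higher line, and several were barely expressed in the GFP line. NPAS1 (ENSG00000130751, chromosome 19, 47019820 to 47045775), a neuronal bHLH-PAS repressor, held 0.276, 1.98 and 1.86 CPM in the GFP line and 22.6, 17.4 and 11.1 CPM in the YAP5SA line (log2 difference 3.63 ± 0.55, adjusted p = 0.00441). STXBP6, which binds SNARE proteins in exocytosis, held 0.512, 3.13 and 3.4 against 24.3, 18.5 and 18.2 CPM (log2 difference 3.12 ± 0.52, adjusted p = 0.00761). PTPRQ, a phosphatase of hair-cell stereocilia that is also found in kidney, held 0, 2.02 and 2.17 against 12.1, 11 and 8.78 CPM (log2 difference 2.92 ± 0.71, adjusted p = 0.0374). In each of these genes replicate 1 of the GFP line was far below its other 2 libraries, and replicate 1 of the GFP line with doxycycline was low as well. Replicate 1 was also the lowest library of both GFP groups for ITIH3, KISS1, FBLN5 and MFAP5. The log2 differences of NPAS1, STXBP6, PTPRQ and MFAP5 were 3.15, 2.64, 2.34 and 1.80 without that library, and PTPRQ then lost its call (adjusted p = 0.0688).

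The other 9 of the 12 largest higher genes encode proteins of different kinds. FBLN5, which assembles elastic fibres, held 2.88, 3.61 and 3.67 CPM in the GFP line and 16.6, 16.5 and 13.6 CPM in the YAP5SA line (log2 difference 2.20 ± 0.12, adjusted p = 8.77e-07). MFAP5, a microfibril glycoprotein, held 17.3, 35.8 and 44.3 against 154, 137 and 128 CPM (log2 difference 2.11 ± 0.37, adjusted p = 0.0106). DDR2, a collagen receptor kinase, held 2.09, 0.277 and 0.948 against 4.93, 6.47 and 3.76 CPM (log2 difference 2.19 ± 0.51, adjusted p = 0.026). Its GFP libraries spread more widely than its YAP5SA libraries relative to their means. The others were the peptide genes KISS1 (1.97, 3.33 and 4.07 against 15.5, 16.3 and 13.4 CPM, log2 difference 2.27 ± 0.31, adjusted p = 0.00208) and SPX (log2 difference 2.27 ± 0.54, adjusted p = 0.0327), the lipoprotein gene APOE (5.4, 4.4 and 2.65 against 18.3, 26.3 and 14.0 CPM, log2 difference 2.23 ± 0.36, adjusted p = 0.00537), the hyaluronan-binding ITIH3 (log2 difference 2.53 ± 0.62, adjusted p = 0.0306), the membrane protein ITM2A (log2 difference 1.99 ± 0.20, adjusted p = 0.000143) and MYOCD. MYOCD, the co-activator of smooth-muscle transcription, was low in both lines, at 0.512, 0.595 and 0.514 against 2.17, 2.5 and 1.74 CPM (log2 difference 1.97 ± 0.21, adjusted p = 0.000201). Calls of PTPRQ, ITIH3, SPX and DDR2 ended in 6, 5, 5 and 4 of the 6 fits without 1 library, at adjusted p of up to 0.122, 0.119, 0.113 and 0.0833, whereas the other 8 held in all 6. PTPRQ lost it without any 1 library, ITIH3 without any but replicate 3 of the GFP line, SPX without any but replicate 1 of the GFP line, and DDR2 without replicates 2 or 3 of the GFP line or 1 or 2 of the YAP5SA line. Without replicate 1 of the GFP line SPX and DDR2 differed by 3.20 and 3.03. DESeq2 and limma-voom did not call PTPRQ (adjusted p = 0.219 and 0.124) or ITIH3 (0.123 and 0.0898), and limma-voom put their log2 differences at 4.57 and 3.49.

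**Figure D3:**
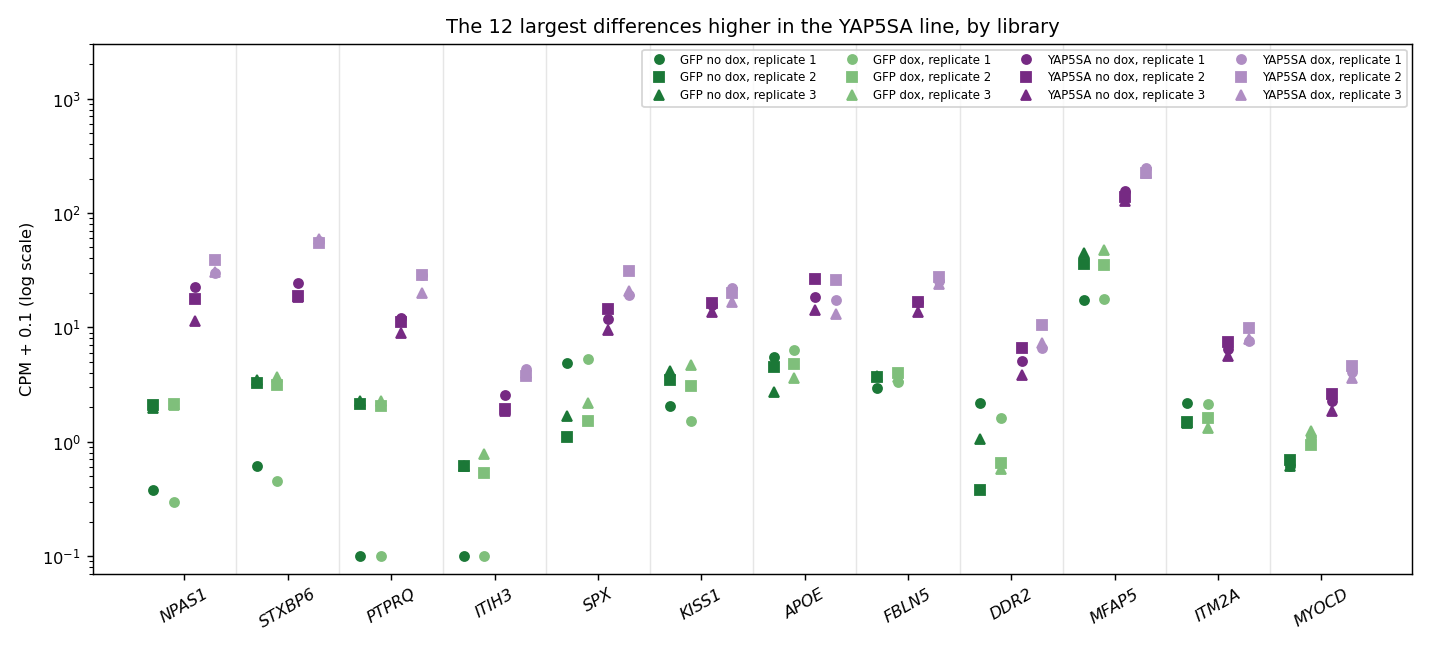
CPM + 0.1 (log axis) of the 12 named genes with the largest higher differences, in all 12 libraries, with colours for the 4 groups and symbols for replicates 1 to 3. Replicate 1 of the GFP line lies lowest in both GFP groups for NPAS1, STXBP6, PTPRQ and ITIH3, and all YAP5SA libraries lie above all GFP libraries.

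TM4SF20, a tetraspan membrane protein named here after its values were seen, was the sole gene with at most 3 counts over the untreated GFP libraries and at least 10 in every untreated YAP5SA library. It had 3 counts against 54, a ratio of 18.0 after scaling, with an exact 95% interval of 5.85 to 90.1 that covers counting error only. With doxycycline it had 6 counts in the GFP line and 101 in the YAP5SA line. The reverse pattern was found for 0 genes.

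On the lower side the differences were smaller. CHRD (ENSG00000090539, chromosome 3, 184380073 to 184390736), an extracellular antagonist of bone morphogenetic proteins, held 4.89, 6.06 and 3.52 against 1.9, 1.95 and 1.3 CPM (log2 difference -1.49 ± 0.28, adjusted p = 0.00748). XKR4, of the XK family of phospholipid scramblases, held 4.34, 6.3 and 3.95 against 1.97, 1.47 and 2.45 CPM (log2 difference -1.30 ± 0.23, adjusted p = 0.00388). HS3ST1, a heparan sulfate sulfotransferase, held 5.12, 6.3 and 5.1 against 2.49, 2.34 and 2.45 CPM (log2 difference -1.18 ± 0.16, adjusted p = 0.000804), and KLRG2 held 2.17, 2.18 and 2.45 against 0.908, 0.953 and 1.15 CPM (log2 difference -1.17 ± 0.15, adjusted p = 0.000542). STEAP1 was lower too (log2 difference -1.04 ± 0.19, adjusted p = 0.00501). These 5 calls held in each fit without 1 library.

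The other lower genes lost their calls when single libraries were left out. SLC34A2, a sodium-phosphate cotransporter, held 12.3, 16.3 and 7.15 against 3.71, 5.72 and 4.7 CPM (log2 difference -1.33 ± 0.31, adjusted p = 0.0265). EPHB1, an ephrin receptor, held 13.9, 19.8 and 10.6 against 7.38, 7.54 and 4.82 CPM (log2 difference -1.16 ± 0.31, adjusted p = 0.0481). CFTR, the chloride channel, held 4.26, 5.87 and 3.16 against 2.37, 2.5 and 1.42 CPM (log2 difference -1.08 ± 0.28, adjusted p = 0.032). In CPM the GFP libraries of each spread more widely than the YAP5SA libraries, and the calls of SLC34A2, EPHB1 and CFTR ended in 5 of the 6 fits without 1 library, all but the one lacking replicate 3 of the GFP line (adjusted p up to 0.119, 0.175 and 0.138). limma-voom did not call SLC34A2 (adjusted p = 0.0561) or EPHB1 (0.059). The drug-metabolising CYP3A5 (-1.14) and LRATD1 (-1.15) lost their calls without replicates 1 or 2 of the GFP line or replicate 1 of the YAP5SA line, LRATD1 also without its replicate 3, at adjusted p of up to 0.0678 and 0.105. POSTN, a matricellular protein (-0.99), lost it without replicate 1 of either line (up to 0.0718). EMX2OS (-1.002) lost it without replicate 2 of the GFP line or replicate 1 of the YAP5SA line (up to 0.0585). EMX2OS lies antisense to EMX2, and as the strand setting of the counting is not given, its reads cannot be told apart from those of EMX2, which was lower as well (log2 difference -0.81 ± 0.17, adjusted p = 0.00999; 0.0564 without replicate 2 of the GFP line).

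Of 22 podocyte genes measured, 3 were called higher and 1 lower (18.2% called, against 8.65% of all genes), with a median log2 difference of 0.03, and in bulk RNA fewer cells of a type and less RNA per cell cannot be told apart. The 3 were the collagen IV chains of the mature glomerular basement membrane, COL4A3 (5.6, 7.53 and 6.95 against 17.5, 19.4 and 14.2 CPM, log2 difference 1.35 ± 0.15, adjusted p = 0.000292) and COL4A4 (39.6, 36.7 and 39.6 against 70.6, 73.0 and 73.1 CPM, log2 difference 0.90 ± 0.06, adjusted p = 8.34e-06), and the transcription factor TCF21 (9.42, 8.36 and 7.71 against 16.4, 18.1 and 12.7 CPM, log2 difference 0.89 ± 0.16, adjusted p = 0.00537). KIRREL1, the slit diaphragm protein NEPH1, was slightly lower (log2 difference -0.15 ± 0.04, adjusted p = 0.0401), a call that ended without replicates 1 or 2 of the GFP line or 1 or 3 of the YAP5SA line (adjusted p up to 0.181). SYNPO, an actin-associated podocyte protein, held 447, 400.3 and 444 against 475, 498 and 483 CPM and was not called (log2 difference 0.17 ± 0.06, adjusted p = 0.0864). PODXL, the sialoprotein of the podocyte surface, followed the replicate number rather than the line, at 43.6, 30.8 and 55.0 CPM in the GFP line and 41.5, 30.1 and 60.7 CPM in the YAP5SA line (log2 difference 0.03 ± 0.35, adjusted p = 0.968).

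Of 19 parietal epithelial genes 3 were called higher and 1 lower (21.1% called, against 8.65% of all genes). Their median log2 difference was -0.14, with 7 positive and 12 negative. At an unadjusted p below 0.05, 4 were higher and 6 lower. The list's CPM summed to 6474 to 6703 per GFP library and 7109 to 7480 per YAP5SA library, a sum in which abundant members weigh most. The 3 called higher were keratins of simple epithelia, KRT18 (305, 253 and 285 against 550.1, 571 and 505 CPM, log2 difference 0.95 ± 0.11, adjusted p = 0.000497), KRT7 (1047, 888 and 1076 against 1439, 1473 and 1403 CPM, log2 difference 0.52 ± 0.08, adjusted p = 0.00211) and KRT8 (log2 difference 0.46 ± 0.06, adjusted p = 0.000799). PAX8, a renal lineage factor, was lower at 545, 608 and 540.2 against 449, 400.4 and 464 CPM (log2 difference -0.37 ± 0.08, adjusted p = 0.013), but not without replicate 2 of the GFP line (adjusted p = 0.0641). Among 11 markers of mesangial cells, fibroblasts and smooth muscle 4 were higher and 1 lower (45.5% called, against 8.65% of all genes). The platelet-derived growth factor receptor PDGFRB was among the higher ones (6.66, 5.23 and 5.85 against 13.7, 14.1 and 10.9 CPM, log2 difference 1.12 ± 0.15, adjusted p = 0.000645). FAP, a fibroblast-surface protease, was below 1.2 CPM in all 6 libraries (log2 difference 1.85 ± 0.37, adjusted p = 0.00859). PDGFRA, MYH11, DES and ITGA8 had between 0 and 17 counts per line, whereas TAGLN had 88652 and 99333, CNN1 30026 and 31302, ACTA2 7860 and 10122, and THY1 171 and 220 in the GFP and YAP5SA lines. The list's CPM summed to 1830 to 2017 per GFP library and 2149 to 2244 per YAP5SA library, and its part in the other differences was not tested. The 1 lower gene, POSTN, lost its call without replicate 1 of either line, and GATA3, one of the 4, without replicate 1 of the YAP5SA line (adjusted p = 0.0678). Of 7 tubule genes 2 were lower (28.6% called), CFTR among them, and 1 was lower in every fit without 1 library but the one lacking replicate 3 of the GFP line. The number of lower parietal genes was 0 without replicate 2 of the GFP line, 3 without its replicate 3 and 2 without replicate 2 of the YAP5SA line. edgeR, DESeq2 and limma-voom called 0 of 5 endothelial and 0 of 6 leukocyte genes, of which 2 and 1 were higher at an unadjusted p below 0.05.

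Extracellular matrix genes were called in both directions, at 30.8% to 40.0% of each of 4 lists against 8.65% of all genes. That background is not matched to the lists in expression, length or type of gene. Of 20 interstitial collagens 5 were higher and 3 lower. COL11A1, a minor fibrillar chain, held 372, 264 and 387 CPM in the GFP line and 757, 706 and 717 CPM in the YAP5SA line (log2 difference 1.09 ± 0.17, adjusted p = 0.00409), COL12A1 held 97.1, 111 and 121 against 219, 192 and 203 CPM (log2 difference 0.90 ± 0.08, adjusted p = 0.000117), and COL5A1 differed less (log2 difference 0.40 ± 0.07, adjusted p = 0.00604). COL6A2, of the beaded-filament collagen VI, was lower at 435, 454 and 426 against 358, 367 and 347 CPM (log2 difference -0.29 ± 0.04, adjusted p = 0.00135). Of 20 basement membrane chains 5 were higher and 2 lower. Beside COL4A3 and COL4A4, the laminin chain LAMA2 was higher (1.06, 2.02 and 2.25 against 4.07, 4.33 and 3.6 CPM, log2 difference 1.17 ± 0.23, adjusted p = 0.00764), while LAMB3, a chain of epithelial laminin-332, was lower (563, 580.4 and 554 against 477, 440.1 and 461 CPM, log2 difference -0.30 ± 0.04, adjusted p = 0.0012). These laminin chains thus differed in opposite directions. The 3 lower collagens became 1 in every fit without 1 library but that lacking replicate 3 of the YAP5SA line. The 5 higher basement membrane chains became 3 in every such fit but that lacking replicate 3 of the GFP line, and the 2 lower ones became 1 without replicates 1 or 2 of either line.

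Of 29 matrix glycoproteins and crosslinking enzymes 9 were higher and 2 lower, with FMOD (log2 difference 1.31 ± 0.26, adjusted p = 0.00801), THBS2 (log2 difference 0.94 ± 0.17, adjusted p = 0.00441) and the latent TGF-beta binding protein LTBP1 (log2 difference 0.49 ± 0.09, adjusted p = 0.00603) beside FBLN5 and MFAP5. This count was 5 to 8 without 1 library, and 5 without replicate 2 of the GFP line and without replicate 1 of the YAP5SA line. The lower ones numbered 1 without replicates 1 or 2 of the GFP line and 0 without replicate 1 of the YAP5SA line. Among 26 proteases and inhibitors 6 were higher and 2 lower, the latter 0 without replicate 2 of the GFP line and 1 without replicates 1 or 3 of the YAP5SA line. Those of smallest p were higher, among them TIMP3, a matrix-bound metalloproteinase inhibitor (8.44, 8.92 and 7.82 against 23.0, 23.0 and 19.8 CPM, log2 difference 1.39 ± 0.07, adjusted p = 8.77e-07), the metalloproteinase ADAM19 (113, 128 and 129 against 225, 214 and 191 CPM, log2 difference 0.77 ± 0.07, adjusted p = 0.00014) and the serpin SERPINE2 (log2 difference 0.68 ± 0.08, adjusted p = 0.000292). Of 21 genes of TGF-beta signalling 2 were higher and 2 lower. The lower ones were the co-receptor TGFBR3 (log2 difference -0.45 ± 0.06, adjusted p = 0.000854) and the repressor SNAI2 (29.3, 30.6 and 30.6 against 21.8, 19.8 and 22.2 CPM, log2 difference -0.51 ± 0.06, adjusted p = 0.000462).

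Adhesion and cytoskeletal genes differed by small amounts. Of 32 actin and contractility genes 7 were called higher and 1 lower (25% called, against 8.65% of all genes), and 28 had a positive difference, as did 49.6% of all genes. MYLK, the myosin light chain kinase, was lower (666, 656 and 644 against 523, 521 and 591 CPM, log2 difference -0.27 ± 0.05, adjusted p = 0.00606). PXN, the focal adhesion adaptor paxillin, was higher (405, 405 and 423 against 484, 461 and 464 CPM, log2 difference 0.19 ± 0.04, adjusted p = 0.00634), as were FLNC (0.33) and TPM2 (0.28). FLNC lost its call without replicates 1 or 2 of the GFP line (adjusted p up to 0.0592), and TPM2 lost it without either of these or replicate 1 of the YAP5SA line (up to 0.0932). The number of higher actin genes was 1 without replicate 1 or replicate 2 of the GFP line, 2 without replicate 1 and 4 without replicate 2 of the YAP5SA line, and 0 without both replicate 1 libraries of the GFP line. Of 22 integrins and adhesion receptors 3 were higher, led by the laminin receptor ITGA6 (168, 181 and 181 against 220.2, 222 and 209 CPM, log2 difference 0.30 ± 0.05, adjusted p = 0.00493), and 1 was lower, ITGB8 (115, 131 and 111 against 88.5, 93.6 and 88.2 CPM, log2 difference -0.41 ± 0.08, adjusted p = 0.00813). The share of this list called was 18.2%. Without replicate 1 of the YAP5SA line 1 was higher, and 2 were lower without replicate 3 of the GFP line or replicate 2 of the YAP5SA line.

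Cell junction lists split. Of 19 cadherins and protocadherins 3 were higher, PCDH7 (4.38, 5.07 and 4.9 against 9.67, 9.49 and 7.63 CPM, log2 difference 0.90 ± 0.11, adjusted p = 0.000482), CDH10 (log2 difference 0.68 ± 0.11, adjusted p = 0.00326) and PCDH1 (log2 difference 0.50 ± 0.09, adjusted p = 0.00542), and 0 were lower, with 4 lower at an unadjusted p below 0.05, 3 by DESeq2 and 0 by limma-voom. Without replicate 3 of the GFP line 5 were higher and 1 lower. The share of this list called was 15.8%. It does not hold the clustered protocadherins PCDHA10, PCDHGA6 and PCDHGB1, which were called lower and are described with the chromosomes. Of 19 claudin and tight-junction genes 3 were lower and 1 higher (21.1% called, against 8.65% of all genes). The higher one was the tight-junction scaffold cingulin, CGN (6.27, 5.91 and 5.29 against 12.3, 13.6 and 8.86 CPM, log2 difference 0.99 ± 0.20, adjusted p = 0.0107). CGN lost its call without replicate 1 of the YAP5SA line (adjusted p = 0.053), and 0 lower calls were made without replicates 1 or 2 of the GFP line or replicate 1 of the YAP5SA line, and 1 without its replicate 2.

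Of the called chemokine and cytokine genes most were lower in the YAP5SA line. Of 25 chemokines and cytokines 4 were lower and 2 higher (24.0% called, against 8.65% of all genes). CX3CL1, a membrane-bound chemokine, held 16.8, 16.5 and 15.1 against 7.3, 8.1 and 9.33 CPM (log2 difference -0.97 ± 0.11, adjusted p = 0.000245). The neutrophil chemokines CXCL8 (33.9, 33.7 and 31.6 against 19.7, 16.4 and 21.9 CPM, log2 difference -0.77 ± 0.16, adjusted p = 0.0148) and CXCL2 (log2 difference -0.74 ± 0.14, adjusted p = 0.00649) were lower as well. CXCL8 lost its call without replicates 1 or 2 of either line (adjusted p up to 0.0651). IL18 went the other way, with 7.02, 7.21 and 9.64 CPM in the GFP line and 22.2, 20.9 and 20.1 CPM in the YAP5SA line (log2 difference 1.40 ± 0.12, adjusted p = 8.16e-05). The 4 lower genes became 2 without replicates 1 or 2 of either line, and the 2 higher ones 1 without replicates 1 or 2 of the GFP line or 1 of the YAP5SA line.

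Of 18 NF-kB subunits and targets 2 were lower and 0 higher, 17 had a negative difference, and 7 were lower and 0 higher at an unadjusted p below 0.05. The share called, 11.1%, was near the 8.65% of all genes, of which 50.4% had a negative difference and 10.0% were lower at an unadjusted p below 0.05. DESeq2 and limma-voom called 4 and 2 lower and 0 higher. BIRC3, an inhibitor of apoptosis that NF-kB induces, held 64.0, 75.9 and 64.0 against 36.5, 32.3 and 41.5 CPM (log2 difference -0.89 ± 0.17, adjusted p = 0.0108), and SOD2, the mitochondrial superoxide dismutase, held 329, 328 and 353 against 257, 262 and 284 CPM (log2 difference -0.33 ± 0.08, adjusted p = 0.0278). BIRC3 lost its call without replicate 1 of the YAP5SA line (adjusted p = 0.0529), and SOD2 lost it in all fits without 1 library but that lacking replicate 3 of the YAP5SA line (up to 0.116). Among 30 interferon-response genes 1 was higher, the tetherin gene BST2 (log2 difference 0.37 ± 0.07, adjusted p = 0.00846), and of 15 complement genes 1 was higher, SERPING1 (log2 difference 0.95 ± 0.19, adjusted p = 0.0146). These shares, 3.33% and 6.67%, are below or near the 6.04% of all genes. The interferon genes numbered 2 without replicate 2 of the YAP5SA line and the complement genes 0 without replicate 2 of the GFP line.

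Secreted growth factors and their antagonists were mixed. Of 22 genes of bone morphogenetic protein signalling 5 were higher and 4 lower (40.9% called, against 8.65% of all genes). The ligand BMP4 was higher (4.89, 4.0 and 4.5 against 9.87, 9.01 and 9.29 CPM, log2 difference 1.07 ± 0.17, adjusted p = 0.00265), as were the modulators BMPER (log2 difference 0.66 ± 0.12, adjusted p = 0.00469), FSTL1 (914, 847 and 943 against 1343, 1379 and 1309 CPM, log2 difference 0.58 ± 0.06, adjusted p = 0.000117) and FSTL3 (log2 difference 0.52 ± 0.08, adjusted p = 0.00312), whereas the antagonist CHRD was lower. The 4 lower genes became 2 without replicate 1 of either line or replicate 2 of the YAP5SA line, and 1 without replicate 2 of the GFP line. Of 11 genes of the EGF family 3 were higher, NRG1 (103, 90.1 and 102 against 133, 119 and 131 CPM, log2 difference 0.38 ± 0.07, adjusted p = 0.00449), HBEGF (log2 difference 0.49 ± 0.10, adjusted p = 0.0103) and the receptor ERBB2 (log2 difference 0.22 ± 0.04, adjusted p = 0.00304), and 0 lower, with 1 lower at an unadjusted p below 0.05. HBEGF lost its call without replicate 1 of the YAP5SA line (adjusted p = 0.0544). The share of the EGF family called was 27.3%. FGF1 (15.9, 16.6 and 19.6 against 32.9, 27.3 and 32.5 CPM, log2 difference 0.83 ± 0.10, adjusted p = 0.000462) and ANGPTL4 (log2 difference 0.54 ± 0.10, adjusted p = 0.00601) were higher among 20 genes for FGF, PDGF, VEGF, IGF and endothelin ligands, of which 3 were higher and 1 lower (20.0% called). Of 29 WNT genes 2 were higher, led by WNT5B (21.6, 22.0 and 22.0 against 31.2, 33.0 and 33.1 CPM, log2 difference 0.57 ± 0.05, adjusted p = 8.82e-05), and 1 lower, a share of 10.3% that was near the 8.65% of all genes. In fits without 1 library 1 to 2 WNT genes were higher and 0 to 2 lower, with 1 higher lacking replicates 2 or 3 of the GFP line or 2 of the YAP5SA line, 0 lower lacking replicate 1 of the YAP5SA line, and 2 lower lacking replicate 3 of the GFP line or 2 of the YAP5SA line. The 1 lower growth factor ligand lost its call without replicates 1 or 2 of either line.

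Of 33 axon guidance genes 6 were called higher and 2 lower (24.2% called, against 8.65% of all genes). SLIT2, a secreted repellent, held 8.99, 9.55 and 8.1 CPM in the GFP line and 15.9, 15.3 and 14.4 CPM in the YAP5SA line (log2 difference 0.78 ± 0.08, adjusted p = 0.00014), and SEMA7A held 203, 173 and 172 against 304, 306 and 259 CPM (log2 difference 0.67 ± 0.12, adjusted p = 0.0061). SEMA4B was lower (74.0, 79.7 and 64.6 against 53.1, 56.0 and 51.7 CPM, log2 difference -0.44 ± 0.08, adjusted p = 0.00341). The higher guidance genes numbered 3 without replicates 2 or 3 of the GFP line or 1 of the YAP5SA line, and the lower ones 1 without replicates 1 or 2 of either line. Of 35 ion channels and transporters 7 were higher and 4 lower (31.4% called), with the sodium channel SCN9A in front (6.43, 6.9 and 9.76 against 26.2, 26.4 and 22.8 CPM, log2 difference 1.71 ± 0.16, adjusted p = 0.000142). Without 1 library 4 to 8 were higher and 0 to 4 lower, with 4 higher and 0 lower in the fits lacking replicates 1 or 2 of the GFP line or replicate 1 of the YAP5SA line, and 1 lower in the fit lacking replicate 3 of the YAP5SA line. CDKN1C, an imprinted inhibitor of cyclin-dependent kinases, was the 1 lower gene of 18 imprinted genes (29.3, 33.1 and 25.2 against 20.3, 21.2 and 17.2 CPM, log2 difference -0.58 ± 0.11, adjusted p = 0.00642). The share of imprinted genes called, 5.56%, was below the 8.65% of all genes.

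Amino acid transporters were among the metabolic genes called higher. SLC7A5, the large neutral amino acid transporter, held 295, 275 and 236 CPM in the GFP line and 733, 779 and 524 CPM in the YAP5SA line (log2 difference 1.34 ± 0.16, adjusted p = 0.0014). Its partner subunit SLC3A2 held 95.3, 92.7 and 93.8 against 162, 165 and 136 CPM (log2 difference 0.71 ± 0.09, adjusted p = 0.000512). In both genes replicate 3 was the lowest YAP5SA library and still above every GFP library. They are counted among 23 genes of ATF4 and the unfolded protein response, of which 5 were higher and 0 lower (21.7% called, against 8.65% of all genes), with 9 and 0 at an unadjusted p below 0.05. Without replicates 1 or 2 of the GFP line or replicate 1 of the YAP5SA line 2 were called higher. DESeq2 called 6 higher and limma-voom 5, both 0 lower.

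Of 25 genes of cholesterol and fatty acid synthesis 7 were higher (28.0%, against 6.04% of all genes) and 0 lower, with 10 and 1 at an unadjusted p below 0.05, where 13.5% and 10.0% of all genes stood, and DESeq2 and limma-voom called 8 and 7 higher and 0 lower. They include the sterol carrier STARD4 (log2 difference 0.57 ± 0.10, adjusted p = 0.00495) and the mevalonate-pathway enzymes FDPS (70.5, 68.7 and 70.3 against 86.7, 86.0 and 81.3 CPM, log2 difference 0.28 ± 0.04, adjusted p = 0.00157) and MVD (log2 difference 0.26 ± 0.05, adjusted p = 0.00864). SLC2A3, a neuronal-type glucose transporter, led the glycolysis and hypoxia genes (77.3, 42.3 and 44.8 against 172, 227 and 132 CPM, log2 difference 1.69 ± 0.40, adjusted p = 0.0365), with replicate 1 the highest GFP library. Its call ended without replicates 2 or 3 of the GFP line or 1 or 2 of the YAP5SA line (adjusted p up to 0.138). Of 24 genes of NRF2 and xenobiotic enzymes 1 was higher, GSTM3 (log2 difference 0.33 ± 0.07, adjusted p = 0.00947), and 2 lower, CYP3A5 and AKR1C3 (log2 difference -0.79 ± 0.22, adjusted p = 0.0442). The share called was 12.5%, against 8.65% of all genes. The GSTM3 call ended without replicate 1 of either line (up to 0.0513) and that of AKR1C3 without any 1 library (up to 0.147) and with limma-voom (0.0801), and 2 genes of this list were higher without replicate 3 of the YAP5SA line.

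Cell cycle genes showed no call in mitosis. All 21 mitotic genes had a positive difference, median 0.28, and for 17 of them every YAP5SA library lay above every GFP library, as for 16.4% of all genes, yet edgeR, DESeq2 and limma-voom called 0, and 0 had an unadjusted p below 0.05. MKI67, the proliferation antigen, held 102, 127 and 123 CPM in the GFP line and 139, 142 and 133 CPM in the YAP5SA line (log2 difference 0.23 ± 0.32, adjusted p = 0.723). With doxycycline MKI67 stood at 53.2, 127 and 123 CPM in the GFP line and at 229, 143 and 131 CPM in the YAP5SA line, replicate 1 lying apart in each. The fit of the 6 untreated libraries alone and that without both replicate 1 doxycycline libraries called 0 mitotic genes as well. MKI67 was named after its values were seen. Of 29 genes of G1/S and replication 3 were higher (10.3%, against 6.04% of all genes), the licensing factor CDC6 (log2 difference 0.51 ± 0.10, adjusted p = 0.00771), CCND3 (97.4, 96.4 and 102 against 140.1, 136 and 123 CPM, log2 difference 0.43 ± 0.06, adjusted p = 0.000645) and CCND1 (log2 difference 0.19 ± 0.05, adjusted p = 0.0481), and 0 lower, with 8 and 0 at an unadjusted p below 0.05. The CCND1 call ended without any 1 library (adjusted p up to 0.189).

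By chromosome the share of tested genes called ranged from 0% of 30 on the mitochondrial genome to 12.9% on chromosome 13, with 5.69% on the X chromosome. Among runs of 50 neighbouring tested genes the lowest median, -0.24, fell in the clustered protocadherin region of chromosome 5, where 95% of all runs lay between -0.085 and 0.067. Runs of 25 and 100 genes had their lowest medians there too, at -0.46 (140691426 to 141512981 on GRCh38) and -0.15. All 13 measured PCDHB genes, which encode neuronal adhesion proteins, had a negative difference (median -0.50), as did 50.4% of all genes, and their CPM summed to 15.7, 14.98 and 15.6 in the GFP line and 10.1, 10.9 and 12.1 in the YAP5SA line. None of the 13 was called by edgeR, 3 had an unadjusted p below 0.05, and 11 were called lower with doxycycline. Of 22 PCDHG genes, whose transcripts share exons so that counting can split their reads, 20 were negative and 2 were called lower, PCDHGB1 (log2 difference -0.61 ± 0.14, adjusted p = 0.0172) and PCDHGA6 (log2 difference -0.36 ± 0.10, adjusted p = 0.0382). PCDHGB1 lost its call without replicate 2 of the GFP line or replicates 1 or 3 of the YAP5SA line (adjusted p up to 0.0857), and PCDHGA6 without any 1 library (up to 0.145) and with DESeq2 (0.0516). The 4 measured PCDHA genes of this region were split, 2 positive and 2 negative. PCDHA12 was called higher (log2 difference 1.66) and PCDHA10 lower (-1.05). Both calls rest on low counts, as the 4 PCDHA genes together held 3.19, 3.25 and 3.44 CPM in the GFP line and 3.32, 3.65 and 2.57 CPM in the YAP5SA line. PCDHA12 lost its call without replicate 1 of the YAP5SA line (adjusted p = 0.0605). These genes were named after their values were seen.

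The same lines were also compared with doxycycline, in the other 6 libraries, where 6691 genes were called (38.3%), 3471 higher (19.9%) and 3220 lower (18.4%). Of the 1056 genes higher without doxycycline 964 were higher with it, of the 456 lower genes 397 were lower with it, and 9 were called in the opposite direction. The lines are the same and both comparisons share a fit, so this overlap is not independent replication. Same-numbered libraries of a line could also resemble each other. PTPRQ in the GFP line held 0, 2.02 and 2.17 CPM without doxycycline and 0, 1.95 and 2.18 CPM with it. The change of the line difference with doxycycline was tested by an interaction, which shares the untreated libraries with the baseline comparison. It called 1202 genes (6.88%), 629 upward (3.60%) and 573 downward (3.28%), and 390 of these are among the 1512. The remaining 1122 baseline differences had no called change, which does not show that they stayed alike. For CCN2 the line difference was 0.47 without and 1.07 with doxycycline, and for LATS2 0.61 and 1.41, both called by the interaction. For F3 the values were 1.32 and 2.04, a change that was not called (adjusted p = 0.151). ANGPTL4 was among those that turned, from 0.54 to -0.31, as did BCL2, an inhibitor of apoptosis, from -0.45 to 0.37. The baseline call of BCL2 ended in every fit without 1 library but that lacking replicate 3 of the GFP line (adjusted p up to 0.156), and with limma-voom (0.0561).

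**Figure D4:**
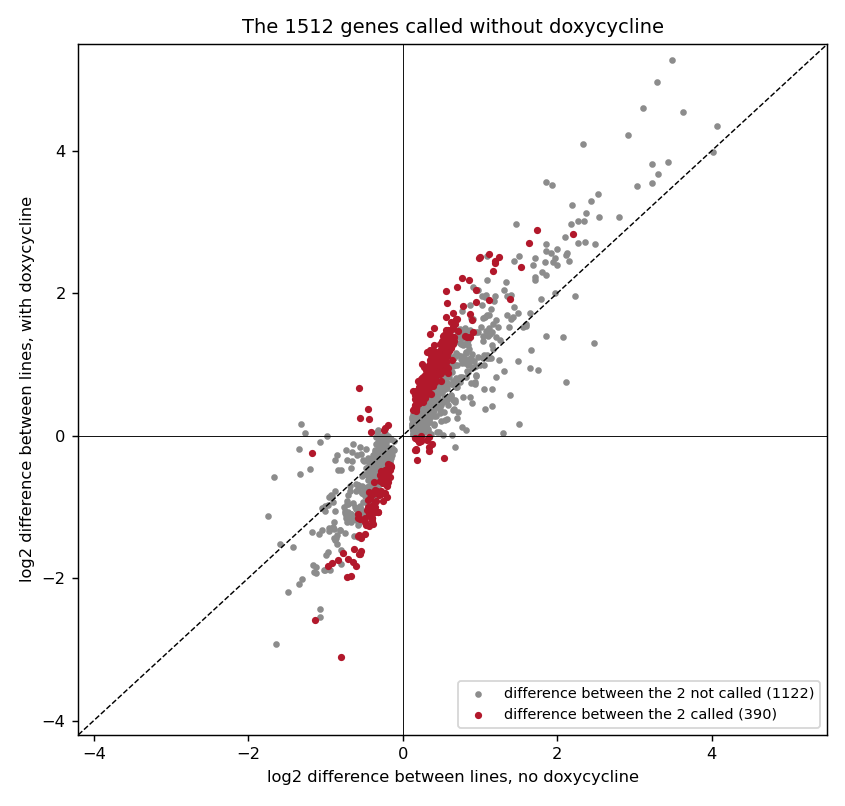
Log2 difference between the lines without doxycycline (horizontal) and with it (vertical) for the 1512 genes called without it; the dashed line marks equal differences. Red points are the 390 genes whose difference changed by the interaction test. Most genes keep their side of 0, and 9 are called in opposite directions.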

How the data were processed

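Poly(A) RNA was sequenced from 12 libraries, of which the 6 without doxycycline are described. The authors deposited 1 table of whole-number read counts per gene (62656 rows). The tools named, per the submitters' processing notes, are limma, DESeq2, featureCounts, Subread and DRAGEN, with build GRCh38. For their versions and roles, and for strandedness, nothing is given in the sources used here. Samples were grouped by their labels.

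edgeR 4.0.16 (R 4.3.3) was run on the counts: filterByExpr, TMM scaling, and 1 robust quasi-likelihood fit of the 12 libraries, which left 8 degrees of freedom, with a common biological coefficient of variation of 7.48%. Alternatives were RLE and upper-quartile scaling, filters on low counts, DESeq2 1.42.0, limma-voom (limma 3.58.1), a log2 minimum of 1, the 6 libraries alone, the replicate number as a block, each library left out, and, chosen after seeing the data, replicate 1 libraries left out together. Positions came from GENCODE 29.

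The comparison and the 44 gene lists were chosen with earlier results of these data known. Genes named are the 12 largest called differences in each direction with non-overlapping libraries and a mean of at least 2 CPM in the higher line, for each list its called members of smallest p, at most 4, and a set of YAP targets and podocyte genes. Some of them are not reported here, and any other gene is said to be chosen after its values were seen. Lists are described by counts, with no test of the list.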

Additional observations from a re-analysis of the deposited data

Results flagged for a closer look

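The difference between the lines changed with doxycycline, by the interaction test, for 52 of the genes named by the rule or after their values were seen. Each value below is the line difference with doxycycline minus the line difference without it, on the log2 scale, with an edgeR adjusted p below 0.05. The test uses the untreated libraries on one side, so these values are not independent of the baseline differences.

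For YAP1 the change was 2.24 (adjusted p = 0.0362). Among YAP/TAZ targets it was 0.80 for LATS2, 0.73 for AMOTL2, 0.60 for CCN2, 0.41 for NT5E, 0.41 for CCN1 and 0.29 for AXL. CCN1, not called without doxycycline, differed between the lines by 0.45 with it. The cofactor VGLL3 changed by 0.92, TEAD1 by 0.62, TEAD4 by 0.58, WWC2 by 0.60 and TEAD2 by -0.74.

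Matrix and adhesion genes whose difference grew upward were LAMA2 (1.15), COL12A1 (0.73), FBLN5 (0.63), COL4A4 (0.55), TIMP3 (0.53), SDC2 (0.41), ITGA6 (0.36), DAG1 (0.25) and the junction scaffold CGN (1.51). ITGB8 changed by 0.46, from -0.41 without doxycycline to 0.05 with it. COL6A2 (-0.26), F11R (-0.34) and KIRREL1 (-0.29) moved downward. Among signalling genes the upward changes were PDGFRB (0.78), NRG1 (0.66), FSTL3 (0.61), FZD1 (0.55), HBEGF (0.52), FGF2 (0.40), WNT5B (0.36), FSTL1 (0.33) and the natriuretic peptide gene NPPB (1.15), which was named after its values were seen. The neuronal guidance and synaptic genes SLIT2 (1.04), NLGN1 (0.81), SEMA7A (0.72) and NTN4 (0.46) also moved upward, and SEMA4B (-0.66) and the neurofilament gene NEFM (-1.11) downward.

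AKR1C3 (-2.31), CYP3A5 (-1.45), CX3CL1 (-0.86), ANGPTL4 (-0.85), TBX3 (-0.75), CDKN1C (-0.58), SOD2 (-0.47), PFKFB3 (-0.41) and KLF6 (-0.36) changed downward. KLRG2 (0.92), BCL2 (0.82) and DUSP1 (0.36) changed upward. KLRG2, lower in the YAP5SA line without doxycycline (-1.17), differed by -0.25 with it.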

How the results depend on the processing

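The 1512 genes called without doxycycline became 2994 with the replicate number as a block, 160 with a log2 difference of at least 1 as well, and 567 without both replicate 1 libraries of the GFP line. Leaving out 1 library gave 607 to 1451. Scaling, filtering, DESeq2, limma-voom and a fit of these 6 libraries alone gave 1389 to 1621. The 6691 calls with doxycycline became 1091 with the log2 minimum and 4373 without both replicate 1 doxycycline libraries. The 1202 interaction calls became 127 with the log2 minimum, 2418 with the replicate block, 393 without both replicate 1 libraries of the GFP line, 533 without those with doxycycline, and 750 to 1387 without 1 library. The replicate numbers did not meet the rule for pairing: deviations of same-numbered libraries of the lines correlated at -0.289, 0.230 and 0.282, and replicate 1 of the GFP line correlated best with replicate 2 of the YAP5SA line. The second principal component of the untreated libraries nevertheless followed the replicate number in both lines, and the main fit holds no term for it. The log2 difference of YAP1 was -0.059 without replicate 1 of the GFP line, -0.057 without both of its replicate 1 libraries and up to 0.39 in the other fits without 1 library.

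Of 147 named genes called, 81 held their call in every alternative that gave an adjusted p, 60 lost it in at least 1 fit without 1 library, and 0 reversed. TEAD2 was called lower with the replicate block (-0.30, adjusted p = 0.00415), and ITIH3 lost its call there. Each such fit without 1 library leaves a group with 2 libraries. Depth limits genes near 1 CPM, of about 25 counts per library.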
